A study of Homo sapiens with 3 samples.

Results

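The ZNF genes of chromosome 19 are the protein-coding genes on that chromosome whose symbol starts with ZNF followed by a digit, and 250 gene models of the deposited table met this definition. Of these, 27 had no count in any of the 3 libraries, 22 had 1 to 9 counts in all, and 201 had 10 or more counts summed over the libraries and are described here. A copy of the symbol on another scaffold was listed for 8 of the 49 genes under 10 counts and for 2 of the 201. The part of such copies in the low values was not tested. Among the 201 genes, 112 lay on the plus strand and 89 on the minus strand.

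Most proteins of this family carry a KRAB domain at the amino end and a run of C2H2 zinc fingers behind it. The fingers read DNA, often inside transposable elements, and the KRAB domain recruits TRIM28 (KAP1), which in turn brings the histone methyltransferase SETDB1 and HP1 proteins to form repressive chromatin. The genes arose by tandem duplication and stand in clusters on chromosome 19, where neighbouring copies share much of their sequence.

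The libraries came from HEK293T, an established human line of embryonic kidney origin that expresses the large T antigen of SV40. All cells were infected with lentivirus at a multiplicity of 5 particles per cell in 8 µg/mL polybrene and were harvested after 72 hours. The control (1 library, labelled WT) received the pLKO.1 vector, and the knockdown group (2 libraries) received shDDX24-1 or shDDX24-2, called hairpin 1 and hairpin 2 here, against DDX24, a DEAD-box RNA helicase. Poly(A) RNA was sequenced as 100 bp paired-end reads, and nothing in the labels says whether the cultures were separate, so each p-value measures only the spread between these libraries.

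The repeated build of the family is shown by consecutive fingers of ZNF91, a repressor of SVA retrotransposons in the short-arm cluster, and of ZNF45, in a long-arm cluster. Each unit of 84 coding bases runs from the first cysteine of a finger to the base before the next, is read 5′ to 3′ from the GENCODE 29 transcript (GRCh38), and has the bases that code for the TGEKP linker in capitals.
ZNF91 unit 1: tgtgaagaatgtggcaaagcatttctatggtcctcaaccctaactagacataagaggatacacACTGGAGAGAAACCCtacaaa
ZNF91 unit 2: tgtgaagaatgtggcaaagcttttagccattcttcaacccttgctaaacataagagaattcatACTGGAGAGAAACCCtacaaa
ZNF91 unit 3: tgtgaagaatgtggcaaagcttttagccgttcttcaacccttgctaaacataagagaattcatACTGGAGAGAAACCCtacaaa
ZNF45 unit 1: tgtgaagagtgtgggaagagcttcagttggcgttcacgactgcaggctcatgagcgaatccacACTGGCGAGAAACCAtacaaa
ZNF45 unit 2: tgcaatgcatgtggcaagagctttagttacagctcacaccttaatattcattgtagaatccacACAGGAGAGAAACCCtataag
Units 2 and 3 of ZNF91 were identical at 98.8% of bases and units 1 and 2 at 83.3%, whereas the pair from ZNF45 was identical at 67.9%. Between the genes, identity ranged from 65.5% to 66.7%. The most alike of these units lie within ZNF91, so they do not show that reads can pass between genes. Transcript sequence that is shared between genes, which bears on the counts, is described further on.

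Promoters are shown for 2 genes of the short-arm cluster, ZNF66 and ZNF493, which had counts in the control above both hairpins, and for ZNF180 and ZNF45, 2 genes of a long-arm cluster in which hairpin 2 exceeded hairpin 1. Each is the 250 bases before the RefSeq start (GRCh38.p14), 5′ to 3′ on the strand of the gene, with matches to CCAAT (the NF-Y motif) and GGGCGG (the Sp GC box), on either strand, in capitals.
ZNF66 promoter: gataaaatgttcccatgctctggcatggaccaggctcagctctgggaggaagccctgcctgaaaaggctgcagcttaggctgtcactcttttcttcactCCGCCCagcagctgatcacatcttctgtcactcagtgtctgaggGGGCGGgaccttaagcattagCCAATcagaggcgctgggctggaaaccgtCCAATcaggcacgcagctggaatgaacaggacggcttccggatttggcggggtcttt
ZNF493 promoter: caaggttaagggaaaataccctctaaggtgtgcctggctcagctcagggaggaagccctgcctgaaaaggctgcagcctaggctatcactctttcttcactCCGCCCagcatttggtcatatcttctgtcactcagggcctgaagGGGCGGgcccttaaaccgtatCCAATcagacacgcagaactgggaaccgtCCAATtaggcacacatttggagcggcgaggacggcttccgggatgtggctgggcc
ZNF180 promoter: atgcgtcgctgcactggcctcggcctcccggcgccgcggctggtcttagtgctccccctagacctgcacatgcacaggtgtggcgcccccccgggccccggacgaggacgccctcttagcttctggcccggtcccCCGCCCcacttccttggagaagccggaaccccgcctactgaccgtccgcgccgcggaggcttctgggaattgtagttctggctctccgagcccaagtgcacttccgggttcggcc
ZNF45 promoter: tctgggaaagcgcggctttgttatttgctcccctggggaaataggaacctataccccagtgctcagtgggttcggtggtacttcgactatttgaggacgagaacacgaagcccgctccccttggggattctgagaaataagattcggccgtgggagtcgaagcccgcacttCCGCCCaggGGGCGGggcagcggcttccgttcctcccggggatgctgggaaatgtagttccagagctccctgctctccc
ZNF66 (chr19:20776054-20776303, plus strand) and ZNF493 (chr19:21396883-21397132, plus strand) shared 200 aligned bases, 80.0% of the window, and both held 2 CCAAT matches and 2 GC boxes. ZNF180 (chr19:44500523-44500772, minus strand) and ZNF45 (chr19:43935283-43935532, minus strand) shared 147 bases, 58.8%, close to the 57.2% between ZNF66 and ZNF45, and neither held CCAAT.

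The libraries held 52198744 counts (control), 36738685 (hairpin 1) and 37828270 (hairpin 2). DDX24 itself was listed at 0 counts in all 3 libraries, as was its copy on another scaffold, so the depth of the knockdown could not be measured. Of 14 markers of HEK293T and kidney precursors 13 had 10 or more counts, with PAX8 at 0, 0 and 1, and their summed level was 647, 683 and 649 CPM (counts in proportion to the TMM-scaled library size) in the control, hairpin 1 and hairpin 2. Of 13 markers of blood, endothelium, liver and fibroblasts, CD3E was at 0 and PTPRC at 2, 1 and 0 counts, and the sum was 40.3, 49.4 and 36.5 CPM, chiefly from collagen genes and LUM.

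ZNF transcripts of chromosome 19 were scarce. All 250 genes together took 0.279% of counts in the control, 0.261% in hairpin 1 and 0.274% in hairpin 2. The median gene of the 201 had 1039 counts over the libraries and a mean of 7.92 CPM after TMM scaling, with a range from 0.063 to 303 CPM. In bulk RNA, fewer expressing cells and less RNA per cell cannot be told apart.

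Per kilobase of the longest coding transcript, ZNF146 (OZF, a protein made almost wholly of fingers with no KRAB domain) stood highest, at a mean of 80.2 CPM per kb. ZNF428 followed at 61.1 CPM per kb, and the next gene, ZNF787, reached 18.9. ZNF146 had 15911, 10463 and 12061 counts, or 301, 283 and 325 CPM, in the control, hairpin 1 and hairpin 2. The control lay between the hairpins, so the groups overlapped. Of the next 4 genes by mean CPM, ZNF121 had 122, 130 and 117 CPM, ZNF507 had 101, 102 and 109 CPM, and ZNF317 had 56.5, 54.8 and 60.8 CPM. ZNF714 had 97.0, 86.5 and 79.5 CPM. The control lay between the hairpins in ZNF121 and ZNF317, below both in ZNF507 and above both in ZNF714, whose log2 ratios were -0.16 and -0.29. Counting error was small at this depth: the 0.20 log2 difference between the hairpins in ZNF146 had a 95% interval of 0.16 to 0.24.

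**Figure D1:**
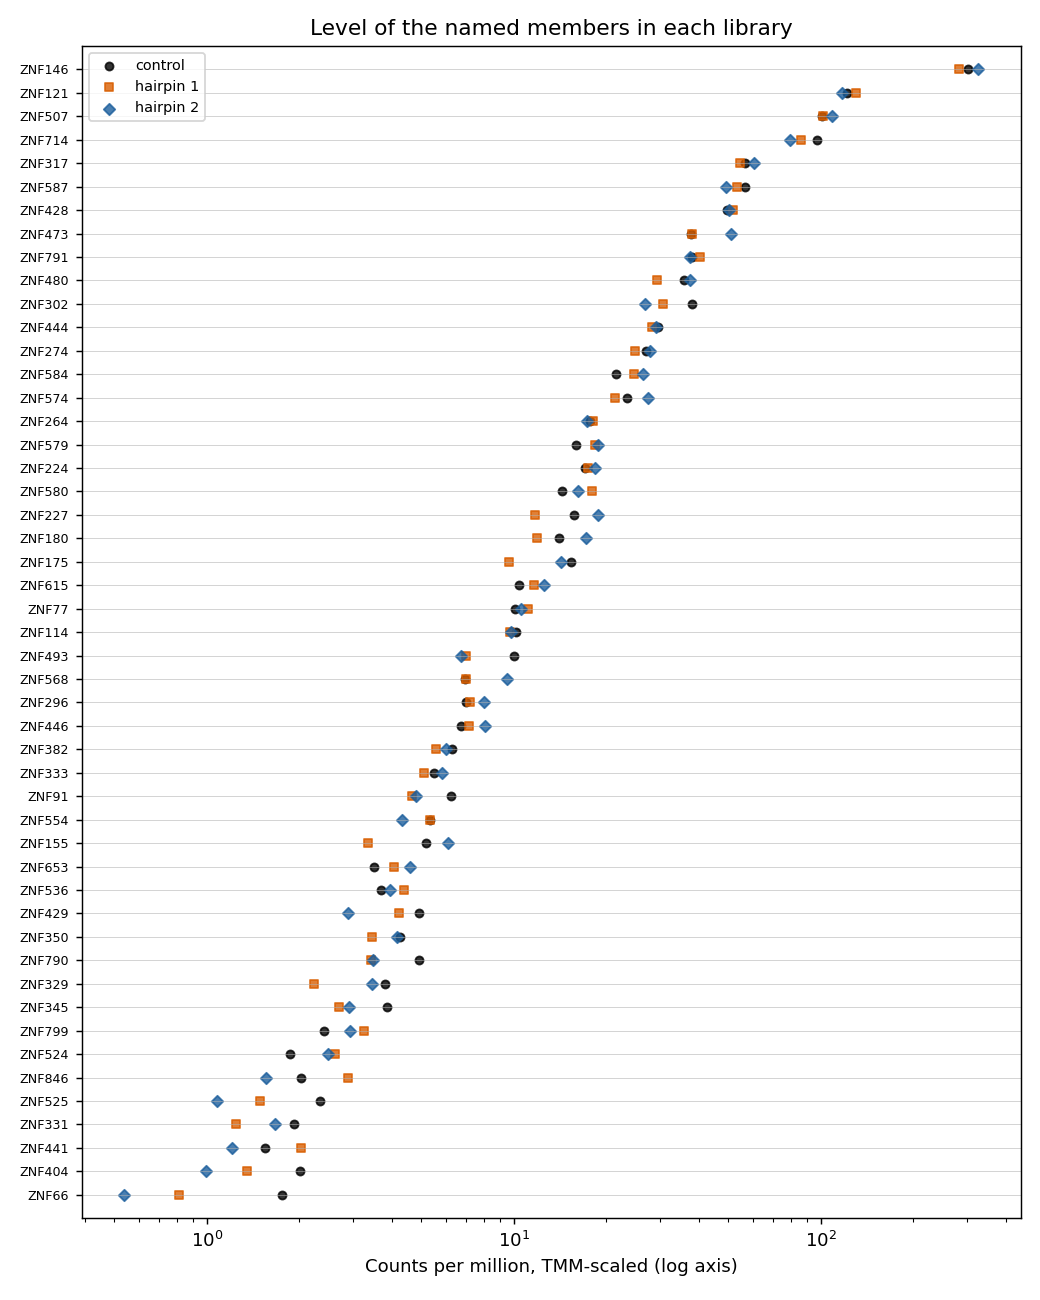
Level of each named ZNF gene of 1 CPM or more in the control, hairpin 1 and hairpin 2, in TMM-scaled CPM on a log axis, 1 row per gene and 1 symbol per library. ZNF146 spans 283 to 325 CPM, while the lowest row, ZNF66, has its control at 1.76 CPM and its hairpins at 0.811 and 0.539 CPM; levels are not divided by length, so rows are for comparison between libraries only.

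To ask whether ZNF genes changed with the DDX24 hairpins, the whole table was tested with edgeR's quasi-likelihood test and Benjamini-Hochberg adjustment over 17713 genes. Of the 201 ZNF genes, 190 passed the low-count filter and 0 passed an adjusted p of 0.05, where 0.0113% of all tested genes did (2 of 17713, both lower). The smallest adjusted p among them was 0.999. At an unadjusted p under 0.05 stood 6 ZNF genes (ZNF781, ZNF66, ZNF541, ZNF525, ZNF493 and ZNF302), against 3.9% of all genes tested. Of these, ZNF781 and ZNF541 reached 10 counts in the control library only, so their direction follows from the filter and is no result. With DESeq2 and with limma-voom the count past the threshold was also 0. The test has 1 residual degree of freedom, which comes from the difference between the hairpins, and with 1 control against 2 libraries an exact permutation test of a single gene cannot reach 0.05.

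Described by order alone, the control exceeded both hairpins in 90 of the 201 genes (44.8%), where 33.1% of the 20644 genes with 10 or more counts had this order. The control lay below both in 37 (18.4%), against 31.3%. The median log2 ratio of TMM-scaled CPM (prior count 2) was -0.13 for hairpin 1 to control, and -0.03 for hairpin 2 to control, which share the control library. Over all 20644 genes these medians lay within 0.02 of 0, and the median from hairpin 1 to hairpin 2 was 0.11 in the ZNF genes. The hairpin 1 library therefore stood lowest for this family, and the hairpin 2 library was nearer to the control. The order varied with the counts. In the 67 genes with 648 or fewer counts, the control was above both hairpins in 39 and below both in 8. In the middle 67 genes the numbers were 31 and 12. In the 67 genes with more than 1478 counts they were 20 (29.9%) and 17 (25.4%), so the excess above both was not seen there.

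Counting error was set against each ratio with exact 95% intervals. For hairpin 1 the interval lay wholly below 0 in 66 genes and above 0 in 13, where 17.3% and 17.8% of all genes did so. For hairpin 2 it lay below 0 in 38 and above 0 in 35, against 18.8% and 20.6%. Against each other, hairpin 2 was above hairpin 1 in 60 genes and below it in 19, with 19.4% and 17.5% over all genes. Both hairpins had intervals below 0 in 25 genes (7.89% over all genes) and above 0 in 5 genes (8.78% over all genes), with the control library shared by both ratios. Of the 25 lower genes, 21 had a KRAB pattern in the translated transcript, as did 165 of all 201 genes. Of the same 25, 22 had 100 or more counts, as did 176 of the 201. The 3 lower genes with fewer counts, ZNF486, ZNF781 and ZNF541, had 10 or more counts in the control library only, so their place follows from the count limit. The 5 higher genes were ZNF579, ZNF580, ZNF581, ZNF787 and ZNF584, all in the last cluster of the long arm. The KRAB pattern was absent in 4 of these 5 and in 36 of the 201 genes. Large differences were few: hairpin 1 was 1.5-fold or more lower in 15 genes and higher in 1, against 8.24% and 5.92% of all genes. For hairpin 2 the counts were 14 and 2, against 11.3% and 4.84%. Low counts weighed on these numbers. For each hairpin, 14 of the lower genes were among the 67 genes with 648 or fewer counts. Among the 176 genes with 100 or more counts, hairpin 1 was lower in 8 and higher in 0, and hairpin 2 in 4 and 0.

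Other sets gave a scale for these shares. The 230 ZNF genes on other chromosomes had the control above both hairpins in 36.1% and below both in 29.6%, with medians of -0.02 for hairpin 1 and 0.00 for hairpin 2. In the 80 of them with the KRAB pattern the shares were 32.5% and 21.25%, with medians of -0.04 and 0.00. Their median from hairpin 1 to hairpin 2 was 0.10, close to the 0.11 of the 201 genes. The other 797 protein-coding genes of chromosome 19 leaned the other way, with the control above both in 19.6% and below both in 43.8%. Their median ratios were 0.09 and 0.05. Among 7355 protein-coding genes outside the ZNF family with a mean of 0.193 to 38.7 CPM, limits that held most but not all ZNF genes, the shares were 30.0% and 33.0%. The low GC content of ZNF transcripts moved with this order. In the 2971 of those genes with a transcript GC of at most 50%, and not below that of most ZNF genes, the shares were 36.9% and 27.5%. In the 168 ZNF genes with a GC of at most 50%, at any CPM and with no lower GC limit, they were 51.8% and 12.5%. The median GC was 43.8% in the 2971 genes and 41.9% in the 168, so these sets were not fully matched. The differences between sets are descriptions, since genes are not replicates.

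**Figure D2:**
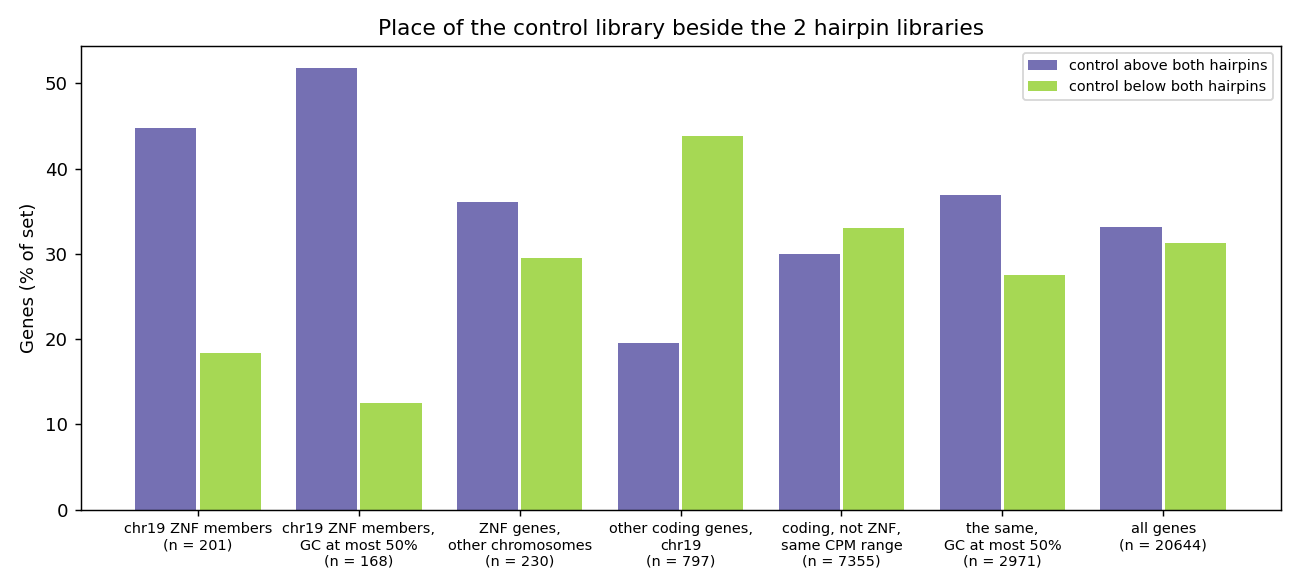
Percentage of genes in 7 sets whose control library lay above both hairpins (purple) or below both (green), with the number of genes under each pair. The ZNF genes of chromosome 19 show 44.8% above and 18.4% below, the other protein-coding genes of the chromosome 19.6% and 43.8%, and all genes 33.1% and 31.3%.

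Other measures moved with the libraries too. The control was sequenced deeper; after it was thinned to the mean depth of the hairpins, the control was above both in 88 ZNF genes and below both in 40. The nuclear noncoding RNA KCNQ1OT1 had 20.7, 13.8 and 13.4 CPM in the control, hairpin 1 and hairpin 2, MALAT1 had 38.6, 30.8 and 37.1 CPM, and NEAT1 had 17.3, 24.8 and 22.4 CPM. The part of RNA handling in the ZNF values was not tested. When a trend on transcript GC content and length was removed, the control was above both hairpins in 74 genes (36.8%, against 31.3% of all genes) and below both in 41 (20.4%, against 31.5%). The medians were then -0.11 for hairpin 1 and 0.01 for hairpin 2, so the sign of the second depended on this step.

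Along the chromosome the 201 genes fell into 15 blocks, with a new block wherever consecutive starts lay more than 1 Mb apart, and 7 blocks held 13 or more genes. The blocks did not share one pattern. The control was above both hairpins in 17 of 24 genes of the pericentromeric block from ZNF101 to ZNF254, in 21 of 29 from ZNF175 to ZNF331 and in 16 of 27 from ZNF565 to ZNF573. It was above both in only 3 of 13 from ZNF557 to ZNF846 and in 15 of 52 from ZNF628 to ZNF446, the block next to the long-arm telomere, where it was also below both in 15. Neighbouring genes were weakly alike: over 186 pairs of consecutive genes within a block, Spearman's rho of their ratios was 0.19 for hairpin 1 and 0.23 for hairpin 2, a correlation across genes of the same libraries that may share reads.

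**Figure D3:**
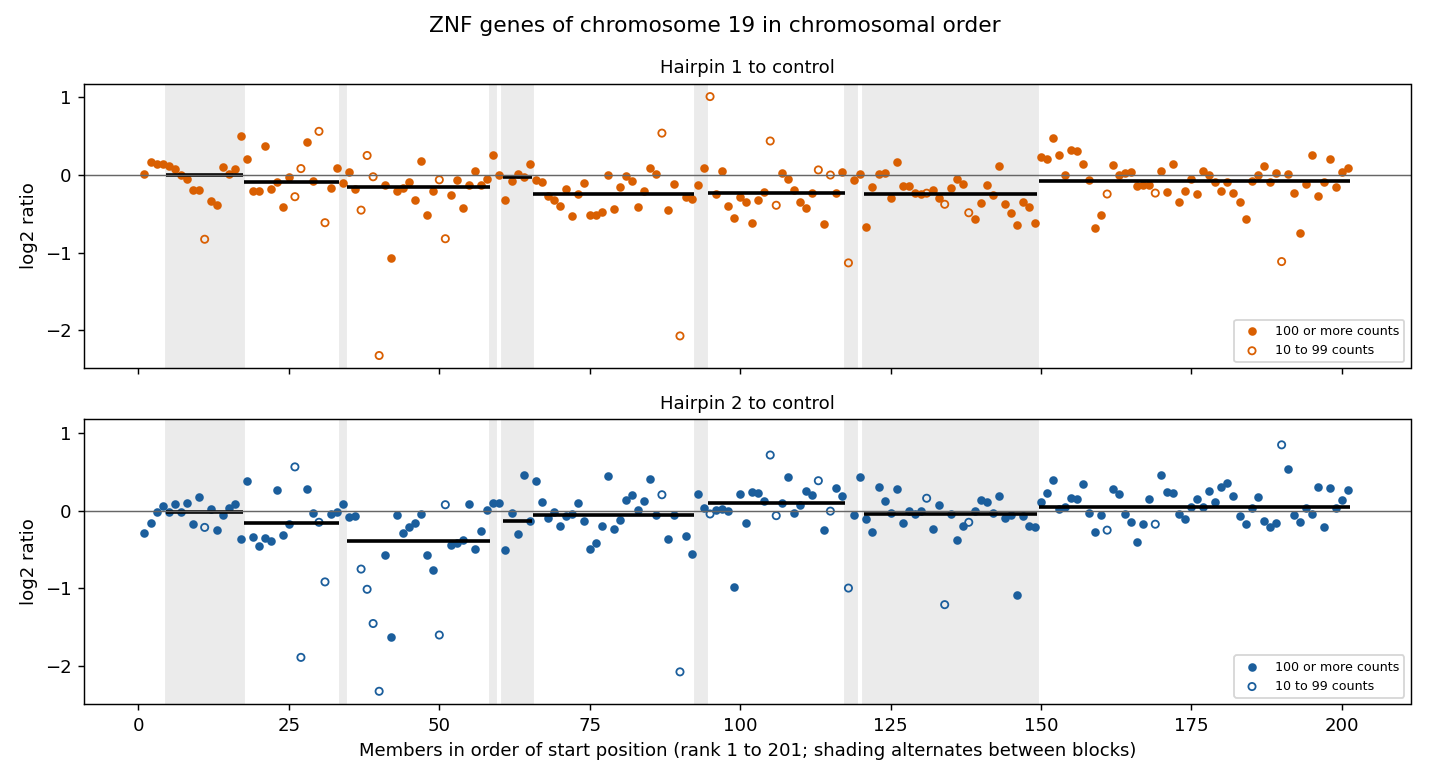
Log2 ratio of hairpin 1 (upper panel) and hairpin 2 (lower panel) to the control for the 201 ZNF genes, ordered by start position on chromosome 19; shading alternates between blocks, filled points have 100 or more counts, open points 10 to 99, and black lines are medians of blocks of 5 or more genes. The black line of the ZNF101 to ZNF254 block lies at -0.15 in the upper panel and at -0.39 in the lower, and that of the ZNF575 to ZNF296 block at -0.24 and 0.10.

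The ZNF101 to ZNF254 block (chr19:19668796-24129961) lies on the short arm beside the centromere, and 22 of its 24 genes have the KRAB pattern. It had the lowest median transcript GC among blocks of 13 or more genes, 38.1%. Its median ratio was -0.15 for hairpin 1 and -0.39 for hairpin 2, and no gene had its control below both hairpins. Low counts weigh on the second value: among the 18 genes with 100 or more counts the medians were -0.15 and -0.27, and 13 had the control above both. After removal of that GC and length trend, the block's medians were -0.10 and -0.34, with the control above both in 15 genes and below both in 2.

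ZNF66 had 93 counts in the control, 30 in hairpin 1 and 20 in hairpin 2, or 1.76, 0.811 and 0.539 CPM. It is 1 of the 2 genes with a copy on another scaffold, and the copy had 1, 0 and 0 counts. The groups did not overlap, and the log2 fold change of knockdown to control was -1.38 ± 0.36 (SE), with an edgeR unadjusted p of 0.0066 and an adjusted p of 0.999. ZNF493, whose promoter aligned with that of ZNF66, had 530, 259 and 250 counts, or 10.0, 7.0 and 6.73 CPM. Both hairpins again lay below the control, at -0.55 ± 0.20 (SE; edgeR adjusted p 0.999). ZNF91 had 331, 172 and 179 counts, or 6.26, 4.65 and 4.82 CPM, with intervals of both ratios below 0. ZNF714, the gene of the block with the most counts, had 5125, 3201 and 2951 counts, or 97.0, 86.5 and 79.5 CPM. At that depth the hairpins differed from the control by -0.16 (interval -0.23 to -0.10) and -0.29 (-0.35 to -0.22). ZNF429 separated the hairpins, with 4.92 CPM in the control, 4.24 in hairpin 1 and 2.88 in hairpin 2. Both intervals lay below 0 in 6 of the block's 18 genes with 100 or more counts (7.89% over all genes with 10 or more counts). Besides ZNF66, ZNF493, ZNF91 and ZNF714 these were ZNF431 (2340, 1533 and 1417 counts) and ZNF708 (1004, 563 and 630 counts), named after their values were seen.

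Several genes of this block were close to the limit of detection. ZNF93, a repressor of LINE-1 elements, had 14, 12 and 4 counts, and ZNF208, which has 36 fingers, the most of any of the 201 genes, had 18, 12 and 3. ZNF486 had 10, 0 and 0 counts and lay just inside the limit of 10, as did ZNF600 in the ZNF175 to ZNF331 block with 5, 2 and 3. Just outside it lay ZNF90 with 6, 2 and 1 counts and ZNF253 with 4, 2 and 3. Ratios of such genes carry wide counting intervals; that of ZNF93 for hairpin 2 ran from -3.36 to 0.37.

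Like the ZNF175 to ZNF331 and ZNF565 to ZNF573 blocks, the ZNF575 to ZNF296 block (chr19:43525497-45076587) held a difference between the hairpins, with hairpin 1 below the control. The interval for hairpin 1 to control lay below 0 in 11 of its 23 genes and above 0 in none (17.3% and 17.8% over all genes). For hairpin 2 it lay below 0 in 1 and above 0 in 4 (18.8% and 20.6% over all genes). Hairpin 2 was above hairpin 1 in 19 genes, with an interval above 0 in 11 and below 0 in none (19.4% and 17.5% over all genes). The block's medians were -0.24 for hairpin 1 and 0.10 for hairpin 2, and the 19 other measured genes among them had 0.05 and -0.06. ZNF227 had 833, 433 and 696 counts, or 15.8, 11.7 and 18.7 CPM, so the control lay between the hairpins. ZNF155 had 274, 124 and 227 counts, or 5.19, 3.35 and 6.11 CPM, with the hairpins apart by 0.86 on the log2 scale (interval 0.54 to 1.19), though 40.5% of its transcript windows were shared with another gene. Likewise ZNF180, with no shared window, had 14, 11.9 and 17.2 CPM. ZNF45 had 1270, 732 and 1041 counts, which are not scaled for the greater depth of the control library. ZNF404 stood apart from its neighbours, with 2.01, 1.35 and 0.997 CPM and both hairpins below the control. ZNF224, a repressor of the aldolase A gene, had 17.1, 17.4 and 18.3 CPM, with 47.6% of its windows shared.

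In the ZNF175 to ZNF331 block (chr19:51571283-53580269) the median ratios were -0.24 for hairpin 1 and -0.04 for hairpin 2. Hairpin 2 was above hairpin 1 in 22 of 29 genes, with an interval above 0 in 9 and below 0 in 0 (19.4% and 17.5% over all genes). The interval for hairpin 1 to control lay below 0 in 15 genes and above 0 in 0 (17.3% and 17.8% over all genes). ZNF175 (OTK18, described as a suppressor of HIV-1 transcription) had 815, 358 and 530 counts, or 15.4, 9.68 and 14.3 CPM. Both hairpins lay below the control, hairpin 1 by -0.67 (interval -0.86 to -0.49) and hairpin 2 by -0.11 (-0.27 to 0.05). ZNF525 had 124, 55 and 40 counts, with a log2 fold change of -0.87 ± 0.32 (SE; edgeR adjusted p 0.999). ZNF331, an imprinted gene, had 1.93, 1.24 and 1.67 CPM, and ZNF350 (ZBRK1, a partner of BRCA1) had 4.28, 3.46 and 4.18 CPM. ZNF480, with the most counts in the block, had 35.9, 29.2 and 37.6 CPM, and its control lay between the hairpins. ZNF615 was 1 of 4 genes of the block with the control below both hairpins, at 10.4, 11.7 and 12.6 CPM.

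In the ZNF565 to ZNF573 block (chr19:36182060-37817300) the medians were -0.25 and -0.06. The interval for hairpin 1 to control lay below 0 in 15 of 27 genes and above 0 in 0 (17.3% and 17.8% over all genes). Hairpin 2 was above hairpin 1 in 21 genes, with an interval above 0 in 12 and below 0 in 0 (19.4% and 17.5% over all genes). ZNF790 had 260, 127 and 129 counts, or 4.92, 3.43 and 3.47 CPM, and ZNF345 had 205, 100 and 108 counts, or 3.88, 2.7 and 2.91 CPM. In both genes the hairpins were close to each other and below the control. These genes overlap by position on opposite strands, so without a known strand setting their reads cannot be fully separated. ZNF781 had only 14, 1 and 1 counts; its fitted fold change rests on those few reads and is not given. ZNF568, whose mouse counterpart silences a placental transcript of Igf2, had 6.97, 6.98 and 9.48 CPM, with hairpin 2 above hairpin 1 by 0.44 (interval 0.21 to 0.68). ZNF382 had 6.30, 5.57 and 6.01 CPM.

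In the other short-arm blocks the directions were mixed. From ZNF557 to ZNF846 (chr19:7069703-9793180) the medians were 0.00 and -0.02, and ZNF846 had 2.03, 2.89 and 1.56 CPM, with the control between the hairpins. From ZNF653 to ZNF791 (chr19:11483427-12640098) they were -0.09 and -0.16, with the control above both hairpins in 8 of 16 genes and below both in 2. Both intervals lay below 0 in 2 of the 16 genes (7.89% over all genes). These were ZNF627 (11.1, 9.6 and 8.75 CPM) and ZNF136 (8.59, 6.46 and 6.92 CPM), which are named after their values were seen. The 2 with the control lowest were ZNF653 and ZNF799. ZNF653 had 186, 151 and 171 counts, or 3.52, 4.08 and 4.61 CPM, and ZNF799 had 2.40, 3.24 and 2.94 CPM. ZNF441 in the same block had 1.55, 2.03 and 1.21 CPM, with its control between the hairpins. On the long arm, ZNF302, first of a block of 5 genes, had 2015, 1131 and 996 counts, or 38.1, 30.6 and 26.8 CPM, a log2 fold change of -0.41 ± 0.16 (SE; edgeR adjusted p 0.999). The control was above both hairpins without overlap. ZNF302 had the most counts of its block. Of other genes with the most counts in theirs, ZNF77 had 10.1, 11.1 and 10.5 CPM, ZNF333 had 5.49, 5.11 and 5.85 CPM, and ZNF114 had 10.2, 9.73 and 9.83 CPM. ZNF791 had 38.1, 40.4 and 37.5 CPM. ZNF574 separated the hairpins, with 23.4, 21.4 and 27.3 CPM. ZNF541, with 28, 8 and 9 counts, had the control above both hairpins at low depth. ZNF781 and ZNF541 are named for their unadjusted p, seen in the data.

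The last block, from ZNF628 to ZNF446 (chr19:55476617-58481230), was the largest, with 52 genes and medians of -0.07 and 0.05. ZNF584 had 1137, 915 and 982 counts, or 21.5, 24.7 and 26.5 CPM, and ZNF579 had 843, 680 and 697 counts, or 16, 18.4 and 18.8 CPM. In both the control was lowest and the intervals of both ratios lay above 0. ZNF524 had 99, 97 and 92 counts, or 1.87, 2.62 and 2.48 CPM, at 0.44 ± 0.29 (SE; edgeR adjusted p 0.999). ZNF580 had 14.4, 18 and 16.2 CPM. ZNF587, a KRAB gene with 33.8% shared windows, went the other way at 56.7, 53.5 and 49.0 CPM, and ZNF329 had 3.80, 2.24 and 3.45 CPM. At the ends of the chromosome, ZNF554, the first gene, had 5.32, 5.35 and 4.34 CPM, and ZNF446, the last, had 6.72, 7.17 and 8.08 CPM.

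**Figure D4:**
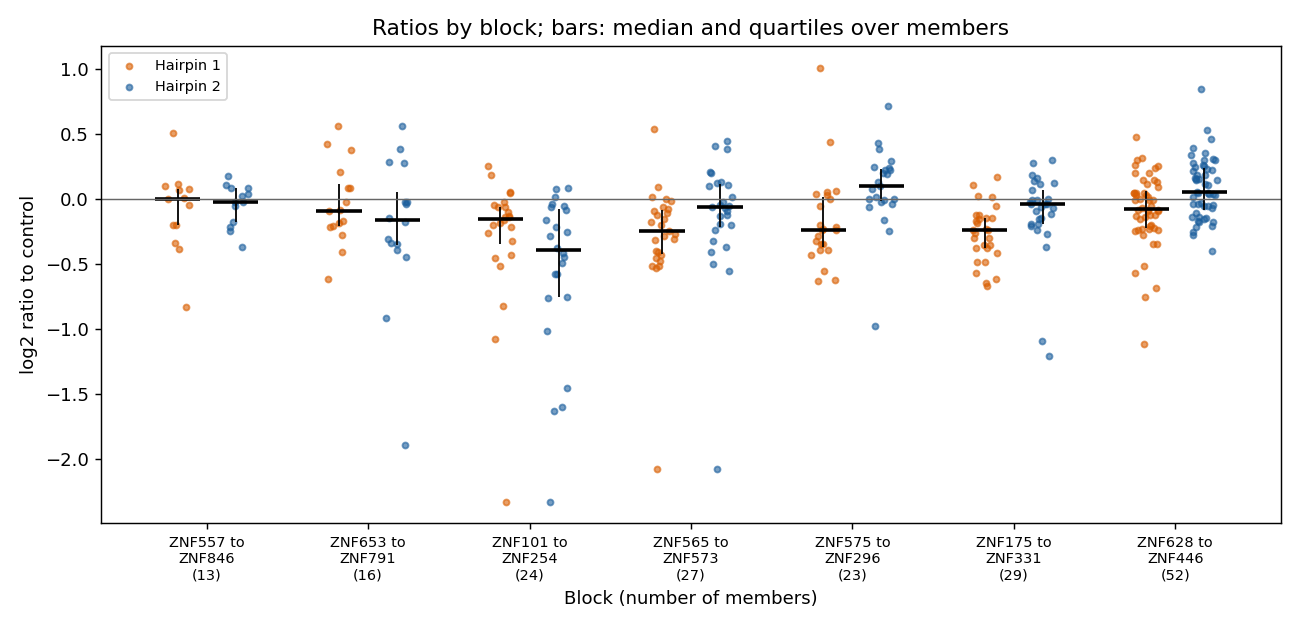
Log2 ratio to the control of hairpin 1 (orange) and hairpin 2 (blue) for each ZNF gene of the 7 blocks with 13 or more genes; each point is a gene, the horizontal bar the median and the vertical bar the quartiles over genes. Hairpin 2 has a lower median than hairpin 1 in the ZNF101 to ZNF254 block (-0.39 against -0.15) and a higher one in the ZNF575 to ZNF296 block (0.10 against -0.24).

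Sequence features of the proteins were compared next. A KRAB pattern was found in the translated transcript of 165 genes and not in 36, the median number of fingers was 12 (0 to 36), and 187 genes had at least 1 linker of the TGEKP type. KRAB genes had medians of -0.15 for hairpin 1 and -0.04 for hairpin 2, with the control above both in 80 and below both in 21. Genes without the pattern had medians of 0.00 and 0.07, with 10 above and 16 below. The 2 classes also differed in base composition, with median transcript GC of 42.2% and 60.9%. After removal of the trend on GC and length, the medians were -0.13 and 0.00 for KRAB genes and -0.06 and 0.03 for the others, so the gaps between the classes were narrower.

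GC content alone ordered the genes in a similar way. In the 67 genes with a GC of 40.9% or less the medians were -0.24 and -0.15, with the control above both hairpins in 44 and below both in 6. In the middle group, up to 44.8%, they were -0.20 and -0.03, with 32 and 10. In the highest group hairpin 2 had a median of 0.04, with 14 above and 21 below. Spearman's rho of GC content with the ratio was 0.35 for hairpin 1 and 0.35 for hairpin 2 across the 201 genes, and 0.25 and 0.14 across 13288 protein-coding genes, values that share the same 3 libraries. The part of GC content in the ratios, as RNA biology or as library preparation, was not tested.

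**Figure D5:**
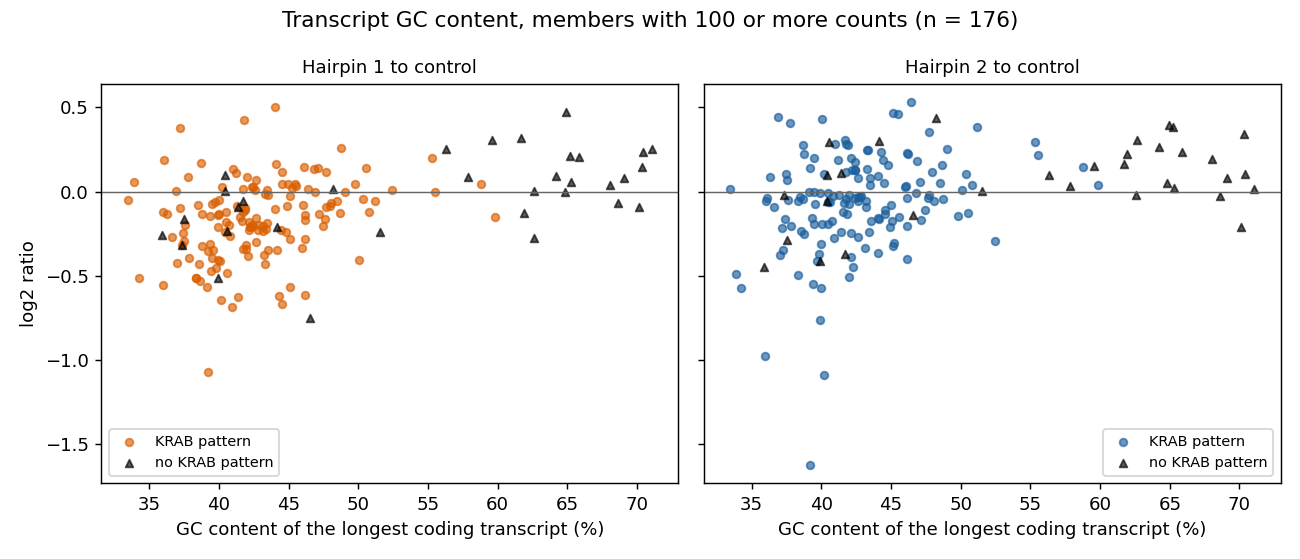
Log2 ratio to the control against the GC content of the longest coding transcript (%) for the 176 ZNF genes with 100 or more counts, for hairpin 1 (left) and hairpin 2 (right); circles have the KRAB pattern and triangles do not. Most KRAB genes lie between 35% and 50% GC and spread below 0 for hairpin 1, while the triangles at 55% and above lie around and above 0.

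Shared sequence limits what a count can be assigned to. In 105 genes no 100-base window of the transcripts matched another gene, and in 40 genes 10% or more of windows did. The most extreme was ZNF320, with 99.5% shared, and the readthrough gene ZNF559-ZNF177 had 89.4%. The 161 genes with less than 10% shared had medians of -0.14 and -0.04, with the control above both in 78 and below both in 26. In the 40 others the medians were -0.08 and 0.09, with 12 and 11.

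Of 20 ZNF genes chosen for a described role, 18 had 10 or more counts. ZNF43 and ZNF85 were near 0, and each has a copy of its symbol listed on another scaffold. None of the 18 passed the test, and the control was above both hairpins in 7 and below both in 6. ZNF473 (ZFP100), a part of the machinery that processes histone pre-mRNA, had 1994, 1413 and 1896 counts, or 37.7, 38.2 and 51.1 CPM. Hairpin 2 was above hairpin 1 by 0.42 (interval 0.32 to 0.52), while hairpin 1 and the control differed by 0.02. ZNF274, which recruits SETDB1 to ZNF genes themselves, had 27.0, 24.8 and 27.7 CPM, with the control between the hairpins. ZNF264 had 17.8, 18.1 and 17.3 CPM, ZNF444 had 29.6, 28.2 and 29 CPM, and ZNF296 had 7.0, 7.19 and 8.03 CPM. ZNF536, a repressor of neuronal differentiation, had 3.69, 4.41 and 3.96 CPM.

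The corepressors through which KRAB proteins act were measured with them. Of 34 listed genes for TRIM28, its partners and heterochromatin, 33 were found and 31 tested, with 0 past the threshold by edgeR and 0 at an unadjusted p under 0.05. The control was above both hairpins in 13 and below both in 8, and the medians were -0.01 and -0.03. TRIM28 had 27620, 18745 and 20820 counts, or 523, 507 and 561 CPM. The control of TRIM28 lay between the hairpins, and SETDB1 was nearly level at 75.3, 74.7 and 73.9 CPM. ATF7IP, which stabilises SETDB1, had 86.5, 72.2 and 70.6 CPM, and CBX5 (HP1 alpha) had 342, 307 and 290 CPM. In both genes the control was highest, whereas DNMT3A, a de novo DNA methyltransferase, had 27.7, 34.2 and 32.6 CPM. Of 21 other zinc finger genes on chromosome 19 outside the ZNF naming, such as ZFP and ZSCAN genes, 11 were tested with 0 past the threshold, and the control was above both hairpins in 4 and below both in 3.

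Promoter letters were counted in the 178 ZNF genes with a RefSeq entry, 1 window of 250 bases each, on both strands. CCAAT occurred in 87 (48.9%), against 33.0% of 27305 promoters and 39.5% of ZNF promoters on other chromosomes. It was present in 22 of 22 promoters of the ZNF101 to ZNF254 block and in 14 of 16 from ZNF653 to ZNF791, but in 4 of 25 from ZNF565 to ZNF573 and 5 of 19 from ZNF575 to ZNF296. GGGCGG occurred in 61.8% of ZNF promoters and 42.2% of all promoters. The antioxidant response core TGACNNNGC occurred in 10.7% and 11.1%. A CCAAT that follows CCGCC can share bases with a GC box, and each motif was counted on its own. Genes with CCAAT had medians of -0.13 and -0.06 and those without -0.16 and -0.00. Outside the ZNF101 to ZNF254 block, the 65 genes with CCAAT had medians of -0.08 and -0.03.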

How the data were processed

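Per the file header, the table that the authors deposited holds raw whole-number counts for 67008 gene models, 1 column per library and not normalized. The submitters' processing notes list the aligner STAR 2.7.3a, the package DESeq2 1.26 and the build GRCh38 (hg38). How reads were counted (tool, strand setting, reads with several matches, annotation) is not given in the sources used here. Genes that overlap on opposite strands, and near-identical copies, are therefore uncertain.

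The low-count filter was filterByExpr (minimum count 10), and counts were scaled by TMM and tested with edgeR 4.0.16 (glmQLFit, glmQLFTest) in R 4.3.3 over all 17713 genes kept, with Benjamini-Hochberg adjustment at 0.05. Groups were 1 control and 2 knockdown libraries; the spread comes from the hairpins, with 1 residual degree of freedom, and the lone control is assumed to vary likewise. Standard errors were taken as the log2 fold change over the root of its F statistic. Ratios of single libraries used a prior count of 2, and exact Clopper-Pearson intervals at 95% cover counting error only. DESeq2 1.42.0 and limma 3.58.1 were alternatives. The fit was tested on simulated data.

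Transcript length, GC content, shared 100-base windows and proteins came from GENCODE release 29, in which all 201 genes had a transcript by unversioned identifier and 58 the same version. Proteins were translated from these transcripts because no RefSeq protein table was used here. The KRAB pattern fixed at the outset was off by 1 position and was corrected and widened by sequence, without regard to expression. Promoters were aligned with Biopython 1.88. GC and length trends were removed by loess (span 0.3).

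Named genes were the 6 highest and 6 lowest by the smaller ratio of both hairpins (1 CPM or more in at least 1 library), the 3 most different between hairpins in each direction (100 or more counts), the 5 with the highest mean CPM, the highest of each block, genes with a described role, the first and last genes, and those beside the limit of 10 counts; for corepressors, TRIM28, SETDB1 and up to 4 others, of which some are printed. The genes and lists were chosen with earlier results of these data known.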

Additional observations from a re-analysis of the deposited data

How the results depend on the processing

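The count of ZNF genes past the threshold was 0 by edgeR's quasi-likelihood test and stayed 0 with DESeq2 size factors, library totals, no low-count filter, DESeq2, limma-voom, a thinned control, the GC and length trend removed, 100 or more counts, and an adjusted p of 0.1. The median log2 fold change was -0.06, from -0.13 without hairpin 2 to -0.03 without hairpin 1. The number of genes with the control above both hairpins ran from 74 (trend removed) to 99 (library totals), and the number below both from 26 (genes with under 10% shared windows, an alternative chosen after seeing the data) to 41 (trend removed). The median ratio of hairpin 2 to control had another sign, 0.01, with the trend removed. Of 459 alternative values for 51 named genes, 22, in 17 genes, had another sign and 0 passed the threshold; the largest fold change among these 17 was 0.29 in size. No paired analysis was possible because there was 1 control library and the labels pair it with neither hairpin. The single control library, the unmeasured DDX24 transcript, low counts and shared sequence limit every value.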
